A study of Homo sapiens with 12 samples.

Results

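The genes CXCL10, CXCL2, CCL2 and CXCL12 encode chemokines that are usually placed under different inducers, and they are 4 of the 14884 genes measured. They were selected on measured values of these arrays, as an interferon-type chemokine (CXCL10), NF-kB-type chemokines (CXCL2 and CCL2) and an oestrogen-type chemokine (CXCL12) to be set side by side over the 4 labelled groups. Each gene is represented by the probe set whose mean over the 12 arrays was highest, and each of the 4 genes has 1 probe set. Their levels and differences are therefore described with their errors and carry no test.

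The arrays hold RNA of Ishikawa cells, a human endometrial adenocarcinoma line. There are 4 groups of 3 arrays: control cells labelled ERα(-), shMOF cells labelled ERα(-), control cells labelled ERα(+) and shMOF cells labelled ERα(+). KAT8 encodes the histone acetyltransferase MOF, ESR1 encodes ERα, an oestrogen receptor, and shMOF denotes cells with a short hairpin RNA against MOF. The sources used here do not give what distinguishes the ERα(-) and ERα(+) conditions, the hairpin sequence, the number of clones or where the replicates came from, so p-values cover only the spread among these arrays, which may be technical.

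Chemokines are small secreted proteins that direct the migration of leukocytes through G protein-coupled receptors. CXCL10 attracts activated T cells through CXCR3 and is a classical interferon target, CXCL2 attracts neutrophils through CXCR2, and CCL2 attracts monocytes through CCR2. CXCL2 and CCL2 are textbook NF-kB targets, whereas CXCL12 signals through CXCR4, is scavenged by ACKR3, and is known as an oestrogen-responsive gene in hormone-dependent tumour cells.

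The promoter sequences are shown because they carry, or lack, the motifs after which these chemokines are grouped. Each window covers the 250 bases before the gene start, written 5′ to 3′ on the gene's strand, from RefSeq on GRCh38.p14, and capitals mark motif matches. The window of CXCL10 is chr4:76023498-76023747, that of CXCL2 is chr4:74099196-74099445 and that of CXCL12 is chr10:44385098-44385347, all on the minus strand. A promoter entry was matched for 3 of the 4 genes, and CCL2 is named only.
CXCL10: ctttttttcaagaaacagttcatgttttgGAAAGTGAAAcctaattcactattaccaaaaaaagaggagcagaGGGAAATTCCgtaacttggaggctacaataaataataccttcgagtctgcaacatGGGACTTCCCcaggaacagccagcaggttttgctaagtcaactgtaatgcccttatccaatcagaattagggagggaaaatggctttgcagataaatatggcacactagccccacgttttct
CXCL2: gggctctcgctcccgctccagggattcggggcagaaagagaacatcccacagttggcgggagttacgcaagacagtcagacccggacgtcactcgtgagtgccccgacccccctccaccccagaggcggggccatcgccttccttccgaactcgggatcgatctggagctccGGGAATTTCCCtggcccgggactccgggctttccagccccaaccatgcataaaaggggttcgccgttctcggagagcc
CXCL12: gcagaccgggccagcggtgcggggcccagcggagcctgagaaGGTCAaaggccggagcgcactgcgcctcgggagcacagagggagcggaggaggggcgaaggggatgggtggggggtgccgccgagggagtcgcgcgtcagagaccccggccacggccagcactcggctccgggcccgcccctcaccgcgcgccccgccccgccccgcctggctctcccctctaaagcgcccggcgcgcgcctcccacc

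The CXCL10 window holds 1 match to the core of the interferon-stimulated response element (GAAA, any 2 bases, GAAA), which starts at position -221, counted back from -1, the last base before the gene start. It also holds NF-kB consensus matches at 2 places, at positions -177 and -122, and the match at -122 reads as the motif on both strands. The CXCL2 window holds 2 NF-kB consensus matches on opposite strands, at -78 and -77, which overlap in all but 1 base. The CXCL12 window holds 1 oestrogen response element half-site (GGTCA) at -208 and 0 full elements (GGTCA, any 3 bases, TGACC). Both strands were searched. Among 35116 promoter windows of the same length, 3.02% hold the interferon-response core, 9.96% the NF-kB consensus, 32.6% the half-site and 0.0399% the full oestrogen element. A match is a description of these letters and was not linked to any binding measurement.

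Before the levels of the members, the labels were compared with the arrays. KAT8, the target of the hairpin, had a log2 signal of 6.76, 6.87 and 6.68 on control ERα(-) arrays, 6.78, 6.76 and 6.72 on shMOF ERα(-) arrays, 6.80, 6.60 and 6.81 on control ERα(+) arrays, and 6.66, 6.66 and 7.02 on shMOF ERα(+) arrays. The KAT8 values overlapped between shMOF and control in both conditions, so the transcript gave no support to the shMOF label, and the groups are named here as labelled. ESR1 was 0.18 ± 0.12 (SE) higher in ERα(+) than in ERα(-) on the log2 scale among the control arrays, and differed by -0.15 ± 0.12 among the shMOF arrays, with limma adjusted p-values of 0.521 and 0.75. Among control arrays the ESR1 values overlapped. Among shMOF arrays they ran from 4.27 to 4.28 in ERα(+), below all ERα(-) values, which ran from 4.34 to 4.52. The ESR1 transcript thus gave no support to the ERα labels. The 5 epithelial and 4 endometrial epithelial markers measured lay between the percentiles 58.9 (FOXA2) and 99.8 (EPCAM) of the tested genes, and of the 3 stromal markers DCN and LUM lay at 2.70 and 3.25 and THY1 at 37.8. The immune markers measured ran from 11.6 (CD14) to 71.9 (CD68), so CD68 lay above FOXA2. The endothelial markers ran from 18.6 (KDR) to 48.4 (CLDN5). These percentiles are of different probe sets and do not rank transcripts by abundance. The first principal component held 36.8% of the variance, with control ERα(+) replicate 3 and shMOF ERα(+) replicate 2 at its ends. On it, control ERα(+) arrays lay at 13.3, 3.60 and 32.9 and shMOF ERα(+) arrays at -4.40, -29.8 and -9.85. Control ERα(-) arrays lay at -4.22, -3.58 and -11.9 and shMOF ERα(-) arrays at 22.3, -18.0 and 9.68. The component thus differed between compared groups, and adjusting for it can also remove part of a group difference. In bulk RNA, fewer cells that make a transcript and less transcript per cell cannot be told apart.

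CXCL10 (probe set 16977052, chromosome 4, 76021118 to 76023497, GRCh38.p14) had the largest differences of the 4 chemokines in each comparison other than shMOF against control in ERα(-), where CCL2 differed more, and its shMOF difference had opposite signs in the ERα(-) and ERα(+) conditions. Its log2 signal was 5.20, 5.13 and 5.04 in the control ERα(-) arrays and 4.35, 5.13 and 4.52 in the shMOF ERα(-) arrays. It was 4.11, 4.70 and 4.34 in control ERα(+) and 5.49, 5.48 and 5.23 in shMOF ERα(+). The 3 shMOF ERα(+) arrays therefore lay above all other 9 arrays, and the 3 control ERα(+) arrays lay below all control ERα(-) arrays, while shMOF ERα(-) spread across the gap with replicate 2 at the control level.

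The group means of CXCL10 were, from the highest down, 5.40 ± 0.15 (SD, n = 3) in shMOF ERα(+), 5.12 ± 0.08 in control ERα(-), 4.67 ± 0.41 in shMOF ERα(-) and 4.39 ± 0.30 in control ERα(+). In this order, shMOF ERα(+) was separate from control ERα(-), control ERα(-) overlapped shMOF ERα(-), and shMOF ERα(-) overlapped control ERα(+). The range of the 4 group means, 1.02, compares with a spread within groups of 0.27 (SD). In the ERα(+) condition CXCL10 was 1.02 ± 0.19 (SE) higher on arrays with the shMOF label than on control arrays, a 2.02-fold difference. In the ERα(-) condition the sign was the other way, at -0.46 ± 0.19, and this value became -0.69 without shMOF ERα(-) replicate 2 and -0.30 without shMOF ERα(-) replicate 1. The difference between these shMOF effects, the interaction, was 1.47 ± 0.27, or 2.78-fold.

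Read along the other axis, CXCL10 was lower in ERα(+) than in ERα(-) among control arrays, at a log2 difference of -0.74 ± 0.19 (SE), and higher among shMOF arrays, at 0.73 ± 0.19. CXCL10 in shMOF ERα(+) against control ERα(+) stood at 0.95 when both end arrays of the first principal component were left out. With that component as a covariate the CXCL10 difference was 0.62, the difference between the conditions in control arrays was -0.45 and the interaction was 0.94, each with the same sign.

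**Figure D1:**
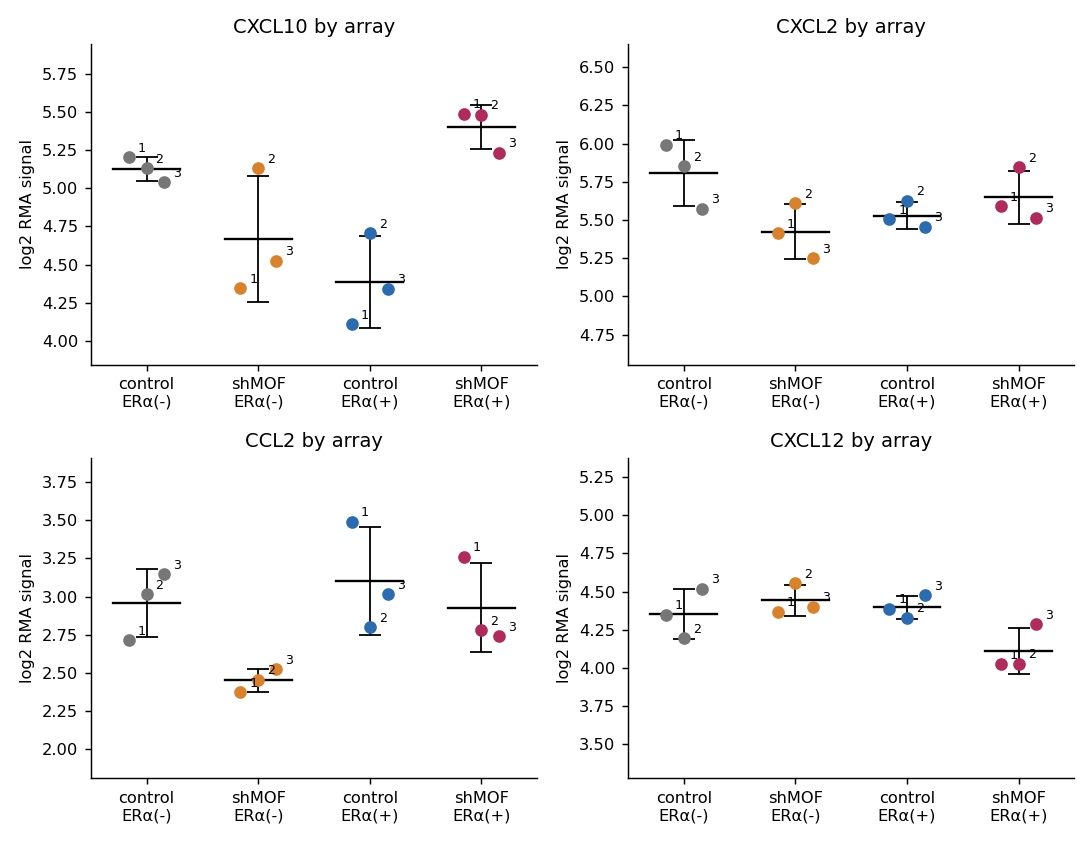
Log2 RMA signal of CXCL10, CXCL2, CCL2 and CXCL12 (y axis, 1 panel each, all panels spanning the same number of log2 units) in the 4 labelled groups (x axis). Points are single arrays with their replicate number, horizontal lines are group means and bars are the SD of 3 arrays. CXCL10 in shMOF ERα(+), from 5.23 to 5.49, lies above every other array, while the groups of CXCL2 largely overlap.

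CXCL2 (probe set 16976844, chromosome 4, 74097040 to 74099195, GRCh38.p14) varied less than CXCL10 over the groups. Its log2 signal was 5.99, 5.85 and 5.57 on control ERα(-) arrays, 5.41, 5.61 and 5.25 on shMOF ERα(-) arrays, 5.51, 5.62 and 5.46 on control ERα(+) arrays, and 5.59, 5.84 and 5.51 on shMOF ERα(+) arrays. No pair of neighbouring groups was separate in the order control ERα(-), shMOF ERα(+), control ERα(+) and shMOF ERα(-). The means in that order were 5.81 ± 0.21 (SD, n = 3), 5.65 ± 0.17, 5.53 ± 0.09 and 5.42 ± 0.18.

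The range of the CXCL2 group means was 0.38, beside a spread within groups of 0.17 (SD). In ERα(-), CXCL2 was lower with the shMOF label than with the control label, at -0.38 ± 0.14 (SE) on the log2 scale, and in ERα(+) it differed by 0.12 ± 0.14. The latter value was -0.014 without both end arrays of the first principal component and -0.065 with that component as a covariate, so CXCL2 had no settled direction there. Between the conditions it was -0.28 ± 0.14 in control arrays and 0.22 ± 0.14 in shMOF arrays. The value of -0.28 was -0.18 without control ERα(-) replicate 1, and that of 0.22 was 0.13 without shMOF ERα(+) replicate 2. The interaction of CXCL2 was 0.50 ± 0.20, and 0.25 with the first component as a covariate.

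CCL2 (probe set 16833204, chromosome 17, 34255285 to 34257203, GRCh38.p14) was near the bottom of the array's range, with a mean at the percentile 7.50 of the tested genes. RMA can compress differences of such dim transcripts. The CCL2 log2 signal was 2.71, 3.02 and 3.15 on control ERα(-) arrays, 2.37, 2.46 and 2.52 on shMOF ERα(-) arrays, 3.49, 2.80 and 3.02 on control ERα(+) arrays, and 3.26, 2.78 and 2.74 on shMOF ERα(+) arrays. The 3 shMOF ERα(-) arrays were the lowest of the 12, and the other 3 groups overlapped one another.

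The means of CCL2 were 3.10 ± 0.35 (SD, n = 3) in control ERα(+), 2.96 ± 0.22 in control ERα(-), 2.93 ± 0.29 in shMOF ERα(+) and 2.45 ± 0.08 in shMOF ERα(-). In ERα(-), CCL2 was lower in the shMOF than in the control arrays, at -0.51 ± 0.19 (SE) on the log2 scale, a 1.42-fold difference. In ERα(+) the value was -0.17 ± 0.19, smaller than its SE, and it was 0.020 without control ERα(+) replicate 1. CCL2 was 0.48 ± 0.19 higher in ERα(+) than in ERα(-) among shMOF arrays, and 0.31 without shMOF ERα(+) replicate 1. Among control arrays it differed by 0.14 ± 0.19, and by -0.053 without control ERα(+) replicate 1. The interaction was 0.33 ± 0.27, and 0.17 without shMOF ERα(+) replicate 1 or 0.53 without control ERα(+) replicate 1. With weights for array quality it was 0.019, and the shMOF difference of CCL2 in ERα(+) was -0.49.

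CXCL12 (probe set 16713530, chromosome 10, 44370165 to 44385097, GRCh38.p14) had the narrowest range, 0.33 between the highest and the lowest group mean beside a spread within groups of 0.13 (SD). Its log2 signal was 4.35, 4.19 and 4.52 on control ERα(-) arrays, 4.37, 4.56 and 4.40 on shMOF ERα(-) arrays, 4.39, 4.33 and 4.48 on control ERα(+) arrays, and 4.02, 4.03 and 4.29 on shMOF ERα(+) arrays. The shMOF ERα(+) arrays were low, below every control ERα(+) and every shMOF ERα(-) array, and overlapped control ERα(-) through replicate 3.

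The CXCL12 means were 4.44 ± 0.10 (SD, n = 3) in shMOF ERα(-), 4.40 ± 0.07 in control ERα(+), 4.35 ± 0.16 in control ERα(-) and, lowest, 4.11 ± 0.15 in shMOF ERα(+). The upper 3 groups overlapped one another. CXCL12 was lower in shMOF than in control arrays in ERα(+), at -0.28 ± 0.12 (SE), and differed by 0.09 ± 0.12 in ERα(-), which is within its error and was 0.0089 without control ERα(-) replicate 2. Between the conditions it was -0.33 ± 0.12 in shMOF arrays. In control arrays it was 0.04 ± 0.12, and -0.036 without control ERα(-) replicate 2. The CXCL12 interaction was -0.37 ± 0.18.

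Set side by side, the 4 chemokines differed in sign and size. In shMOF against control in ERα(-), 1 of the 4 had groups that did not overlap, CCL2, which was lower, where 4.66% of all genes were lower and 4.11% higher without overlap. In ERα(+) these were CXCL10, higher, and CXCL12, lower, where 12.2% of all genes were higher and 14.1% lower. Between the conditions in control arrays it was CXCL10, lower, beside 8.92% of all genes lower and 10.3% higher. Between the conditions in shMOF arrays, CXCL10 and CCL2 were higher and CXCL12 lower, beside 3.80% higher and 5.70% lower over all genes. Because the genes were chosen by these values, nothing is read from these counts. CXCL2 had overlapping groups in all 4 comparisons. The comparisons share arrays, so their values are not independent of one another.

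**Figure D2:**
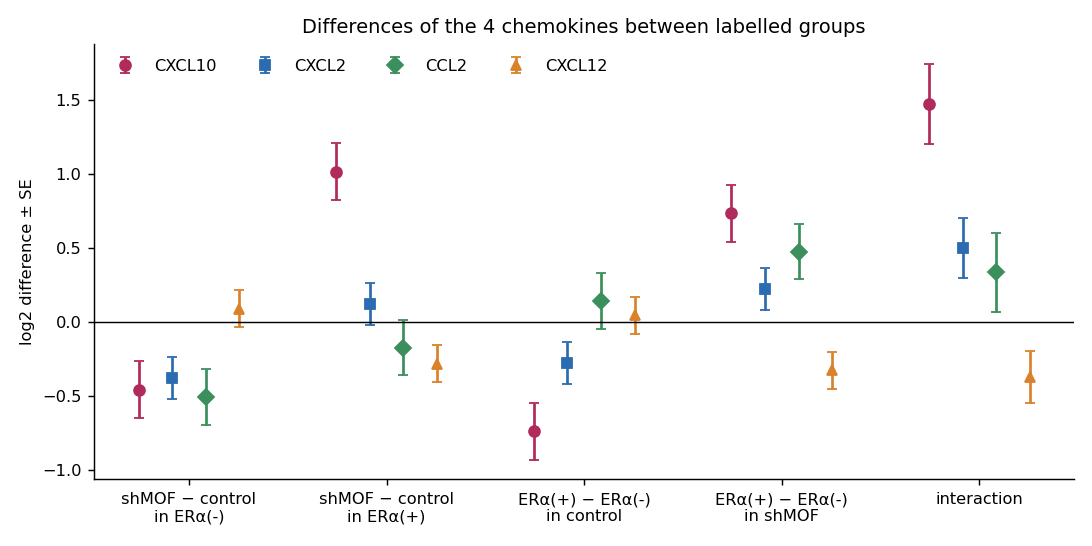
Log2 difference (y axis) of CXCL10, CXCL2, CCL2 and CXCL12 in 4 comparisons of labelled groups and in the interaction, which subtracts the shMOF difference in ERα(-) from the one in ERα(+) (x axis). Points are differences of group means and bars are the SE of the limma fit with 3 arrays in each group. CXCL10 runs from -0.74 to 1.47, while CXCL12 stays between -0.37 and 0.09.

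The members were also compared array by array after the group means were taken out, which leaves variation that did not enter their choice. CXCL10 and CXCL2 deviated in the same direction, with Pearson's r of 0.61 and Spearman's rho of 0.55 over 12 arrays (exact permutation within groups, two-sided, p = 0.0386 and 0.0802). After Benjamini-Hochberg adjustment over 18 relations these were 0.42 and 0.396, and without the 2 arrays farthest from the median of CXCL10, r was 0.44. The other 5 pairs of members had r below 0, down to -0.44 for CXCL2 and CCL2. CXCL10 and the mean of the interferon-induced genes had r = 0.41 and rho = 0.33 (exact permutation p = 0.344 and 0.426, adjusted 0.686 and 0.724), and r was 0.01 without the 2 farthest arrays. No relation of the 18 passed an adjusted p of 0.05, so within groups no pair of members was shown to vary together.

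By likeness over all 12 arrays, taken as Pearson's r among genes with a mean at or above the median, CXCL10 was most like TTBK2, FER, ZNF714, HSDL1 and FRAS1 (r from 0.92 to 0.93). CXCL2 was most like EIF2AK3, the endoplasmic reticulum stress kinase also called PERK, with r = 0.92, then the cell cycle repressor E2F7 at 0.88 and NCOA7, ZBTB1 and C10orf88 at 0.84. CCL2 was most like ZNF274 at 0.80, then MIR3160-1, MIR4638, TFG and POU5F1P4 from 0.74 to 0.76. CXCL12 was most like MIR596 at 0.92, then MIR3667 at 0.84 and LRRC14B, D2HGDH and MUTYH from 0.79 to 0.81. These values describe 12 arrays in 4 groups, which share group differences and array quality, and the highest of so many genes are high by selection.

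The receptors of the 4 chemokines were read in the same comparisons. CXCR3, the CXCL10 receptor, differed by 0.02 ± 0.15 (SE) between shMOF and control in ERα(-) and by -0.18 ± 0.15 in ERα(+) (limma adjusted p = 0.99 and 0.508). CXCR4, the CXCL12 receptor, was bright, with a mean at the percentile 89.0, and ranged within control ERα(+) alone from 7.82 to 9.05. Its differences in these comparisons were 0.40 ± 0.32 and -0.21 ± 0.32 (limma adjusted p = 0.953 and 0.736).

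ACKR3, the other CXCL12 receptor, had values of 4.43, 4.37 and 4.32 in control ERα(+) and of 3.79, 3.79 and 4.07 in shMOF ERα(+). These groups did not overlap, and the ACKR3 difference of -0.49 ± 0.15 passed the unadjusted threshold of 0.05 and had a limma adjusted p of 0.223. CXCR2, the CXCL2 receptor, was -0.47 ± 0.21 in shMOF against control in ERα(-) (limma adjusted p = 0.953) and -0.08 ± 0.21 in ERα(+) (limma adjusted p = 0.854). The CXCR2 difference in ERα(-) also passed the unadjusted threshold. Its groups there did not overlap, with shMOF from 2.78 to 3.62 and control from 3.68 to 3.87. CXCR1 was -0.10 ± 0.19 and 0.31 ± 0.19 in these comparisons (limma adjusted p = 0.965 and 0.357). CCR2, the CCL2 receptor, also lay near the bottom of the range, at the percentile 6.23, and differed by 0.19 ± 0.15 and 0.01 ± 0.15.

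The sister ligands are neighbours of the members in sequence and receptor use. CXCL11, which shares CXCR3 with CXCL10, had values of 4.12, 4.06 and 4.25 in control ERα(+) and 4.33, 4.32 and 4.65 in shMOF ERα(+). The CXCL11 groups were separate, with a difference of 0.29 ± 0.15 (SE) and a limma adjusted p of 0.313. CXCL9, the remaining CXCR3 ligand, was -0.32 ± 0.15 in the same comparison (limma adjusted p = 0.278). The CXCL9 signal was dim, at the percentile 7.66 of the tested genes. CXCL3 and CXCL8, which like CXCL2 act on CXCR2, were -0.44 ± 0.21 and -0.72 ± 0.38 in shMOF against control in ERα(-), and -0.45 ± 0.21 and -0.50 ± 0.38 in ERα(+). For CXCL8 the control ERα(-) arrays alone ran from 3.47 to 5.55. CCL7 and CCL8, related to CCL2, were 0.05 ± 0.20 and -0.27 ± 0.24 in ERα(-), and -0.34 ± 0.20 and -0.48 ± 0.24 in ERα(+). Their signals were dim, at the percentiles 3.52 and 4.13 of the tested genes.

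Over all tested genes, the members included, limma with Benjamini-Hochberg adjustment called 0 of 14884 genes (0%) at an adjusted p below 0.05 in every one of the 5 comparisons, the interaction included. At an unadjusted p below 0.05 there were 711 genes for shMOF in ERα(-) and 2787 in ERα(+), 1894 between the conditions in control and 793 in shMOF arrays, and 2685 for the interaction. The 33 other ligands (35 listed) and 20 receptors (23 listed) had 3, 5, 5, 5 and 3 of 53 genes past this unadjusted threshold in the same order, and leaving out single arrays gave 1 to 7, 4 to 9, 4 to 7, 1 to 7 and 3 to 8. The shares over all genes, higher and lower, were 2.10% and 2.68%, 10.2% and 8.51%, 6.34% and 6.38%, 2.52% and 2.81%, and 9.35% and 8.69%.

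Among the other ligands, CX3CL1, the membrane-bound ligand of CX3CR1, had the smallest p in shMOF against control in ERα(+), between the conditions in control arrays and in the interaction. Its values were 5.27, 5.45 and 5.41 on control ERα(-) arrays, 5.86, 5.48 and 5.99 on shMOF ERα(-) arrays, 6.34, 5.92 and 6.37 on control ERα(+) arrays, and 5.85, 5.03 and 5.53 on shMOF ERα(+) arrays. CX3CL1 thus ran opposite to CXCL10 in sign, higher in shMOF than in control in ERα(-) at 0.40 ± 0.20 (SE) and lower in ERα(+) at -0.74 ± 0.20. Its interaction was -1.13 ± 0.28 (limma adjusted p = 0.207). CCL5, another known interferon and NF-kB target, had the signs of CXCL10 at -0.37 ± 0.16 and 0.39 ± 0.16, and an interaction of 0.76 ± 0.23 (limma adjusted p = 0.219). ACKR2, the scavenger of CC chemokines such as CCL2, was 0.41 ± 0.15 and -0.43 ± 0.15, with an interaction of -0.84 ± 0.22 (limma adjusted p = 0.219).

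The genes usually induced along with each member were read as lists. This list and those below were chosen with earlier results of these arrays known, so their directions are descriptions. Of 20 interferon-induced genes measured out of 30 listed, which do not include CXCL10, 18 were above 0 in shMOF against control in ERα(+), with a median log2 difference of 0.56 beside -0.04 over all genes. At an unadjusted p below 0.05, 13 of the 20 were higher and 0 lower, beside 10.2% of all genes higher, and 0 passed the adjusted threshold. IFIT3, an antiviral effector, had values of 4.33, 4.43 and 4.58 in control ERα(+) and 5.17, 5.37 and 5.56 in shMOF ERα(+), a difference of 0.92 ± 0.16 (SE, limma adjusted p = 0.155). IFI44L differed by 1.66 ± 0.26 (limma adjusted p = 0.155). In the list of interferon sensors and signalling genes 6 of 19 were higher and 0 lower at the unadjusted threshold, among them the RNA sensors IFIH1 at 1.19 ± 0.24 and RIGI at 1.01 ± 0.23 (limma adjusted p = 0.162 and 0.223). Without both end arrays of the first principal component the count of 13 was 14, and with that component as a covariate it was 12; these recounts of the interferon-induced list were chosen after seeing the data.

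In ERα(-) the interferon-induced list lay below 0 in 16 of 20 genes, with a median of -0.21, and 6 were lower at the unadjusted threshold, beside 2.68% of all genes. That count was 1 when shMOF ERα(-) replicate 3 was left out, 3 when shMOF ERα(-) replicate 1 was, and 2 when control ERα(-) replicate 1 was. Between the conditions, 10 of the 20 were lower in control arrays (median -0.48, beside 6.38% of all genes lower) and 11 higher in shMOF arrays (median 0.51, beside 2.52% higher). For the interaction 13 were higher, beside 9.35% of all genes, with a median of 0.78, and IFIT3 had the smallest p (1.42 ± 0.22, limma adjusted p = 0.0696). Over the 12 arrays the median Pearson's r of CXCL10 with these 20 genes was 0.78, beside -0.10 with all other genes, and 15 of the 20 were above 0. For CXCL2 the median r with the same list was 0.45. These r values hold the group differences that were known when the members and the list were chosen, so they are descriptions. With the group means taken out, CXCL10 and the list mean had r = 0.41 (exact permutation p = 0.344, adjusted 0.686).

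**Figure D3:**
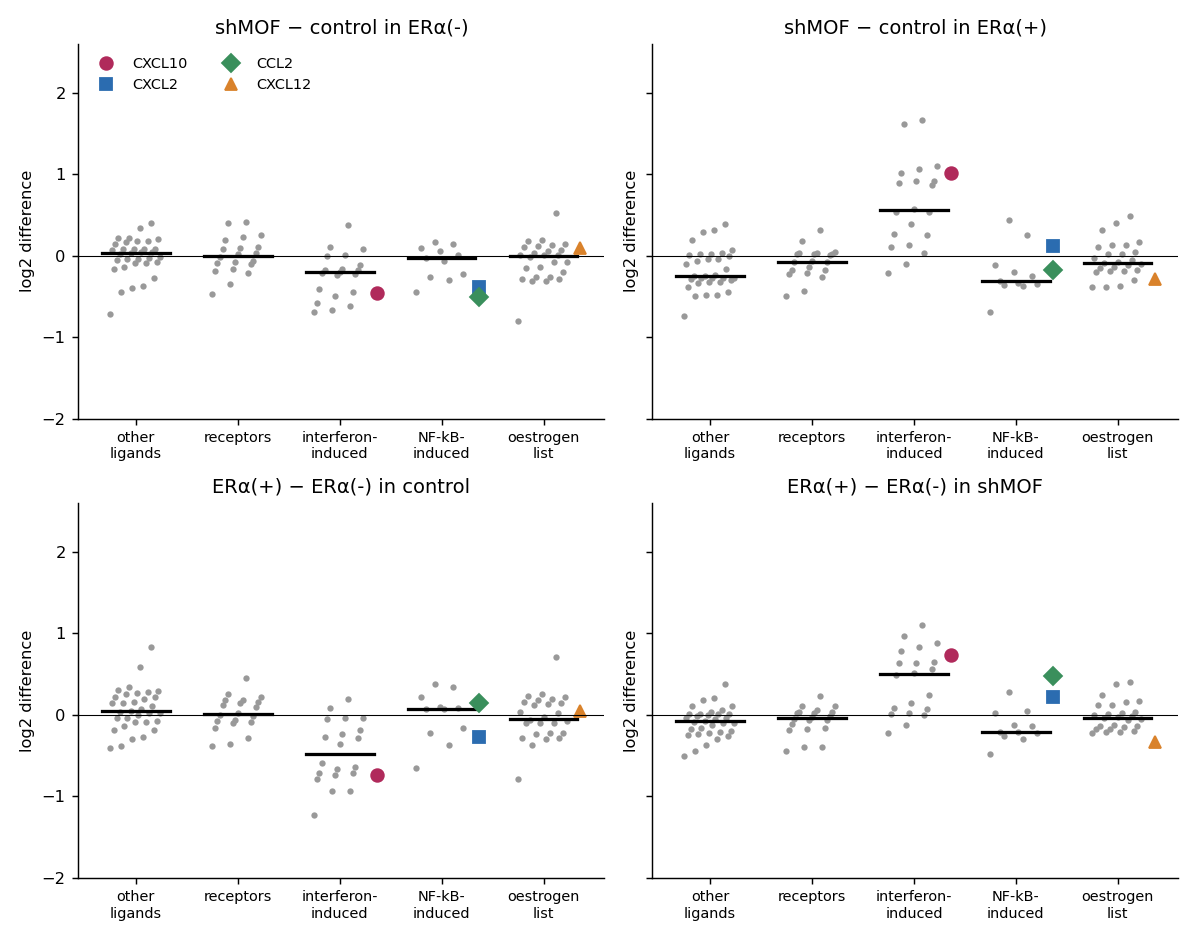
Log2 differences (y axis) of single genes in 4 comparisons of labelled groups, 1 panel each, for 5 gene lists (x axis). Grey points are genes and black lines are list medians, and the coloured symbols show CXCL10 beside the interferon-induced list, CXCL2 and CCL2 beside the NF-kB-induced list and CXCL12 beside the oestrogen list. CXCL10 lies on the same side of 0 as the median of the interferon-induced list in each panel, for example 1.02 beside 0.56 in shMOF against control in ERα(+).

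For CXCL2 and CCL2 the reference was a list of NF-kB-induced genes. Of its 11 measured genes out of 23 listed, 0 passed the unadjusted threshold in ERα(-), where CXCL2 and CCL2 were lower and 2.10% of all genes were higher and 2.68% lower, and the list median was -0.03. In ERα(+) the median was -0.32 and 1 of 11, the adhesion molecule VCAM1, was lower at -0.32 ± 0.12 (SE, limma adjusted p = 0.231), beside 8.51% of all genes lower. Between the conditions the medians were 0.07 in control and -0.21 in shMOF arrays, where CCL2 and CXCL2 were 0.48 and 0.22. Over the 12 arrays the median r with this list was -0.21 for CXCL2 and -0.05 for CCL2. In the NF-kB signalling list 3 of 11 genes were higher and 2 lower in shMOF against control in ERα(+) at the unadjusted threshold, beside 10.2% of all genes higher and 8.51% lower. REL, a subunit of NF-kB, was -0.39 ± 0.18 in shMOF against control in ERα(-) (limma adjusted p = 0.953), and 0.88 ± 0.25 in the interaction (limma adjusted p = 0.219).

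For CXCL12 the reference was a list of ESR1, other receptors, co-regulators and oestrogen-induced genes. Between the conditions in control arrays 1 of its 26 measured genes out of 30 listed passed the unadjusted threshold, TSKU at 0.71 ± 0.21 (SE, limma adjusted p = 0.333), or 3.85% beside 12.7% of all genes, and the list median was -0.05 beside 0.04 for CXCL12. GREB1, a common readout of oestrogen receptor activity, was -0.28 ± 0.13 in the same comparison (limma adjusted p = 0.401). In shMOF against control in ERα(+) 5 of the 26 passed, 3 higher and 2 lower, or 19.2% beside 18.7% of all genes, with a median of -0.09 beside -0.28 for CXCL12. The median r of CXCL12 with the list over the 12 arrays was 0.09, beside 0.05 with all other genes. It was 0.24 with the NF-kB-induced list and -0.39 with the interferon-induced list. For CXCL10 the median r was -0.55 with the NF-kB-induced list and -0.04 with the oestrogen list. For CCL2 it was -0.11 with the interferon-induced list and 0.07 with the oestrogen list. For CXCL2 it was 0.04 with the oestrogen list. These r values also hold the group differences and are descriptions.

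**Figure D4:**
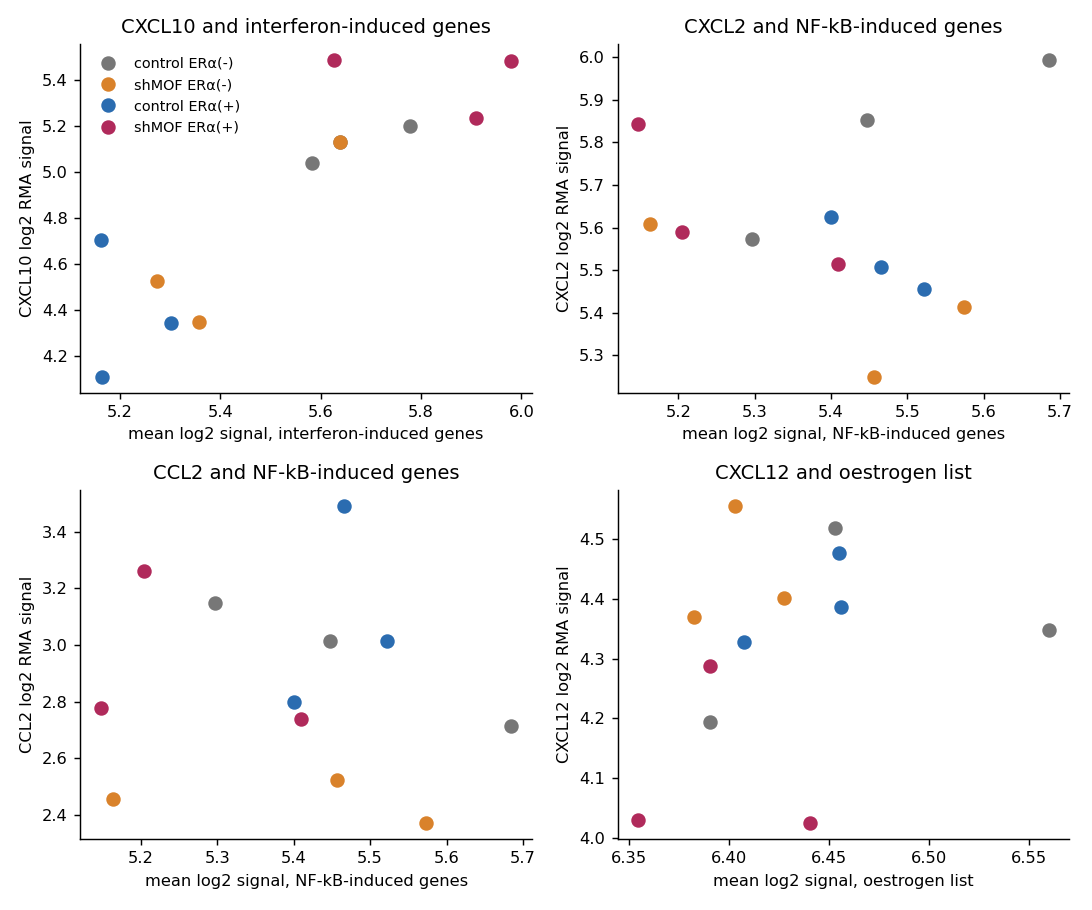
Log2 RMA signal of each chemokine (y axis) against the mean log2 signal of its list in the same array (x axis), for CXCL10 with interferon-induced genes, CXCL2 and CCL2 with NF-kB-induced genes, and CXCL12 with the oestrogen list. Points are single arrays coloured by labelled group, and 1 control ERα(-) and 1 shMOF ERα(-) point of CXCL10 coincide. The interferon-induced mean runs from 5.16 to 5.98 and the control ERα(+) arrays lie at its low end, where CXCL10 is at most 4.70.

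Markers of other cells were read beside these results, since CXCL12 is known from stroma and CXCL10, CXCL2 and CCL2 from leukocytes as well. The 3 stromal markers measured out of 9 listed had a mean log2 signal between 2.92 and 3.24 in all arrays. The 5 immune markers measured out of 11, CD14, CD68, CSF1R, NKG7 and TYROBP, had a mean between 4.60 and 4.79 in shMOF ERα(+), where CXCL10 was highest, and between 4.85 and 5.16 in control ERα(+), where CXCL10 was lowest, and all 5 were below 0 in that comparison. At the unadjusted threshold 1 of the 5 immune markers was lower in shMOF against control in ERα(+), beside 8.51% of all genes lower. Between the conditions in shMOF arrays 2 of the 5 were lower, beside 2.81% of all genes. The 4 endothelial markers lay between 4.40 and 4.74, and the 5 epithelial markers between 8.25 and 8.85. All 5 epithelial markers were below 0 in shMOF against control in ERα(+) (median -0.34), 1 of them lower at the unadjusted threshold, beside the same 8.51%. The 4 endometrial epithelial markers PAX8, SOX17, EMX2 and FOXA2 had a mean between 7.87 and 8.19 in control ERα(-) and between 8.34 and 8.56 in control ERα(+), where CXCL10 was lower. All 4 were above 0 in that comparison (median 0.46), 3 of them higher at the unadjusted threshold, beside 6.34% of all genes higher. In the interaction all 4 were below 0 (median -0.63), 3 of them lower at that threshold, beside 8.69% of all genes lower. The immune mean in ERα(+) and the endometrial epithelial mean in control arrays thus moved against CXCL10, and the part of these markers in the results was not tested.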

How the data were processed

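RNA from Ishikawa cells was hybridised to 12 arrays. Per the submitters' processing notes, the authors used RMA in Affymetrix Expression Console 1.4.1, and the deposited values are log2 signals. This method subtracts background, gives all arrays 1 distribution and combines a set's probes, and differences of dim transcripts can come out compressed. Array medians lay between 4.53 and 4.59. The probe sets' build and annotation are not stated in the sources used here. Platform annotation gave 1 symbol to 16098 of 53617 probe sets, and each of 14884 genes was read from its brightest probe set by mean, with no filter. Coordinates and promoters come from RefSeq (GRCh38.p14).

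Group means were fitted with limma 3.58.1 in R 4.3.3 (two-sided, Benjamini-Hochberg over all genes within a comparison, threshold 0.05). Scripts were tested on simulated data. The members, gene lists and tests were chosen with earlier results of these data known. Genes were named as members, their sister ligands and receptors, KAT8, ESR1, up to 3 genes per list and comparison with the smallest p, and the 5 genes most like each member. The alternatives included array quality weights, the first principal component as a covariate, a replicate block and the code letter of the array as a random block. They also included a filter on genes in the lowest 25% by mean, only the 2 groups compared, and each array left out. The number of arrays, 3 a group, limits the precision.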

Additional observations from a re-analysis of the deposited data

Results flagged for a closer look

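CXCL10 moved in opposite directions between the conditions, lower in every ERα(+) than in every ERα(-) control array (-0.74) and higher among shMOF arrays (0.73), a difference of 1.47 that was not tested because the gene was chosen with these values known. For the other genes the difference itself has a limma interaction, and none passed an adjusted p of 0.05. Between shMOF and control, CCL5 was lower in ERα(-) and higher in ERα(+) with no overlap in either, and its interaction was 0.76. CX3CL1 ran the opposite way with an interaction of -1.13, as did MUTYH, one of the genes most like CXCL12, with -0.52. RIGI, the RNA sensor, had an interaction of 1.52 on the same contrast. RSAD2 was separate in opposite directions both between shMOF and control and between the conditions, with the interaction of 1.50 for both. IFIT3 was lower in ERα(+) control arrays and higher in ERα(+) shMOF arrays, at 1.42.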

How the results depend on the processing

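The 20 differences of the members were recomputed under each alternative. Many of these values could not move, since each member has 1 probe set and the replicate block is balanced. Likewise, leaving out arrays that are not in a pair of groups does not change the difference of that pair. With such values included, 409 of 416 values stayed within 1 within-group SD of the reported one, a count that does not measure robustness. In 5 of them the sign changed: CXCL2 for shMOF in ERα(+) at -0.065 with a covariate for the first principal component and at -0.014 without both end arrays of that component, CCL2 for shMOF in ERα(+) at 0.020 and between the conditions in control arrays at -0.053 without control ERα(+) replicate 1, and CXCL12 between the conditions in control arrays at -0.036 without control ERα(-) replicate 2. That component as a covariate gave CXCL10 0.62 for shMOF in ERα(+), -0.45 between the conditions in control arrays and 0.94 for the interaction, and CXCL2 0.25 for the interaction. Array quality weights gave CCL2 -0.49 for shMOF in ERα(+) and 0.019 for the interaction. The first component itself differed between control and shMOF arrays in ERα(+), so a covariate for it can also remove part of the group difference. The cause of these shifts was not tested.

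Counts at an unadjusted p below 0.05 are given for shMOF in ERα(-), shMOF in ERα(+), the conditions in control, the conditions in shMOF and the interaction. Array quality weights gave 3813, 4762, 3687, 4912 and 5734 genes, and 13, 16, 15, 21 and 17 other ligands and receptors. With the first component as a covariate the last 4 gene counts were 588, 1114, 515 and 758, and ligands and receptors numbered 8 for the conditions in control and 2 in shMOF. Leaving out both end arrays of that component, an alternative chosen after seeing the data, gave 635, 1106, 460 and 999 genes in those 4, and 6, 3 and 6 ligands and receptors for shMOF in ERα(-), the conditions in shMOF and the interaction. The filter on dim genes, which tests fewer genes, left 3 ligands and receptors for shMOF in ERα(+) and 3 for the conditions in control. With only the compared groups in the fit, 6 differed for shMOF in ERα(-). Leaving out single arrays gave 434 to 1671, 1048 to 3473, 1116 to 2463, 436 to 2587 and 1494 to 4036 genes, and 1 to 7, 4 to 9, 4 to 7, 1 to 7 and 3 to 8 ligands and receptors.

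The labels give replicate numbers but no pairing. Same-numbered arrays deviated together above r = 0.1 in 5 of 18 pairs, and other-numbered arrays in 10 of 36. Each array also carries a code letter, and what it stands for is not stated here. Letters A to C occur only in ERα(-) arrays and D to H only in ERα(+) arrays. Within ERα(+), letters D and E occur only in control arrays and F to H only in shMOF arrays. In ERα(-), letter B alone occurs in both control and shMOF arrays. A difference between the conditions, or between shMOF and control in ERα(+), therefore cannot be told apart from one between letters. The interaction contains that ERα(+) difference. With the letter as a random block, the consensus correlation was -0.147. With the replicate block, 7 ligands and receptors passed for shMOF in ERα(-) in place of 3, the gene count there was 794 in place of 711, and the members' differences were unchanged by construction. Signal over background limits CCL2, CCL7, CCL8, CXCL9 and CCR2, which lie near the bottom of the range.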
